A study of Mus musculus with 25 samples.

Results

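The histone genes of the mouse were followed through maps of chromatin contacts in CD8+ T cells. Members were the protein-coding genes of the RefSeq annotation whose symbol is that of a replication-dependent or linker histone (H1f, H2ac, H2bc, H3c or H4c with a number), whose older symbol began with Hist1h to Hist4h, or that were H2bu2 or H2aw. The rule found 71 of 21900 protein-coding genes: 10 H1, 18 H2A, 18 H2B, 12 H3 and 13 H4 genes. Older symbols alone brought in H4f16 and H4bc24, and the latter was an H2B gene by its older symbol. A bin pair belonged to a histone gene when 1 of its 2 bins, each 1 kb long, overlapped the gene span extended by 1 kb on each side. The rule used gene names and positions only, with no measured value.

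Histones are the proteins that DNA is wound around. H2A, H2B, H3 and H4 form the core of the nucleosome, and H1 binds the linker DNA between nucleosomes. Most of their genes are short, lie in clusters and are transcribed in S phase, when new DNA has to be packaged, and many H2A and H2B genes sit head to head with a shared promoter. In the nucleus the clusters are known to gather in the histone locus body, where the factor NPAT and the machinery for histone pre-mRNA ends collect. Activated T cells divide quickly, so they need much new histone.

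Splenic CD8+ T cells of C57BL/6J mice gave the 6 HiChIP libraries, each enriched for H3K27ac. HiChIP counts ligated read pairs between places that are close in the nucleus and enriches those that carry a chromatin mark, here acetylated lysine 27 of histone H3, a mark of active promoters and enhancers. Cells were wild type (WT) or carried 1 of 2 deletions at Il2ra, the gene for the IL-2 receptor alpha chain: one within an intron and one upstream, both labelled as mutants. Cells of every genotype had been stimulated for 2 days with IL-2 or with antibodies to CD3 and CD28 (the labels do not say which was used for these libraries) and rested for 4 h, and then were left as control or given IL-2. The labels leave out the dose and time of the IL-2 addition, the bounds of the deletions and the number of animals or lines behind each library. There was 1 library per genotype and treatment, so genotypes were compared over both treatments and treatments over the 3 genotypes. The fits assume the same IL-2 change in every genotype. The p-values measure only how far these libraries depart from that, with no spread between replicates. This departure is called the spread below, and the fits share it between features. For bin pairs the spread was pooled over all pairs, so a pair's p-value holds no check of its own spread between libraries. The 2 deletion comparisons share their WT libraries and are not independent of each other.

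The tables list bin pairs with at least 20 contacts. Depth ran from 1314137 listed contacts in the intron deletion control to 3596995 in WT with IL-2, so more pairs reach the listing limit in the deeper libraries. Comparisons therefore rest on the 28033 pairs and 18580 bins listed in all 6 libraries (shared pairs, also called loops, and shared bins). Their scaled values are counts put on 1 depth by TMM, a scaling by the bulk of the features. At Il2ra itself the listed contacts, not scaled for depth, were 6026 and 11750 for WT (control, IL-2). They were 293 and 1137 for intron-deleted cells and 2090 and 3463 for upstream-deleted cells. Over its shared loops the change was -1.05 ± 0.11 (log2, SE) in intron-deleted cells (edgeR adjusted p = 9.31e-06). It was -0.37 ± 0.10 in upstream-deleted cells (adjusted p = 0.118) and 0.26 ± 0.09 with IL-2 (adjusted p = 0.0860). All 9 CD8+ T cell marker genes were listed, with 21768 to 42833 contacts over the list in a library. The marker lists of other cells had 0 to 44 contacts (erythroid, 1 of 4 listed), 41 to 308 (CD4+ T cell, 3 of 5), 146 to 401 (myeloid, 2 of 5), 258 to 869 (NK cell, 3 of 5) and 1168 to 2002 (B cell, 2 of 5). Ms4a1 and Pax5 of B cells, Lyz2, Csf1r and Itgam of myeloid cells, Ncr1 of NK cells and Foxp3 were listed in no library. Tyrobp of NK cells was listed in every library, with 258 to 714 contacts. So were Cd68 (120 to 285) and Spi1 (22 to 116) of myeloid cells and Ikzf2 of CD4+ T cells (21 to 126). Nearly all B cell contacts were those of Cd79a. Of 8 CD8+ T cell markers tested in intron-deleted cells, Cd8a (0.55, log2) and Cd8b1 (0.43) rose and Zap70 (-0.29) fell. Cd79a rose (0.41), and the part of other cells in the histone values was not tested. Reads copied by PCR are not independent molecules, so intervals cover counting error only.

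Promoter windows (250 bases before to 50 bases after the start, RefSeq, GRCm38.p6) were given for 66 of the 71 members, in 67 windows. The 8 windows printed here are of genes with loops or bins that changed (H2bu2, H2aw, H2bc6, H4c8), of genes at the strongest loop of chromosomes 3 and 13 (H3c13, H3c3), of a gene of the most covered bin (H2ac21), and of H2bc23, whose window was identical over 300 of 300 bases to that of H4bc24. Capitals mark 3 short motifs on either strand: CCAAT, the box bound by NF-Y; ATTTGCAT, the octamer bound by Oct-1; and the TATA box, whose letters stand with its counts after the windows.

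H2bu2, chr11:58948661-58948960, plus strand: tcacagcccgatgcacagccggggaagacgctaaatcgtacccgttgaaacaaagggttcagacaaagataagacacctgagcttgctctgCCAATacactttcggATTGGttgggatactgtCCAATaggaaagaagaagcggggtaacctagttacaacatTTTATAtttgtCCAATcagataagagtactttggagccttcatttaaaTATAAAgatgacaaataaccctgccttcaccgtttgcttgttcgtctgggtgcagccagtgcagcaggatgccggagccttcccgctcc

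H2aw, chr11:58954435-58954734, plus strand: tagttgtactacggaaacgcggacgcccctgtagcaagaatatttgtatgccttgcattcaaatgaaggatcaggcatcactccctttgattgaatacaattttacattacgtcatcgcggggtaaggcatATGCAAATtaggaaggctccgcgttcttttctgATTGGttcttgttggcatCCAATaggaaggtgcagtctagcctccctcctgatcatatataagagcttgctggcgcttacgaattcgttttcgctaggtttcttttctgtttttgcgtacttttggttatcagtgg

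H2bc6, chr13:23585921-23586220, minus strand: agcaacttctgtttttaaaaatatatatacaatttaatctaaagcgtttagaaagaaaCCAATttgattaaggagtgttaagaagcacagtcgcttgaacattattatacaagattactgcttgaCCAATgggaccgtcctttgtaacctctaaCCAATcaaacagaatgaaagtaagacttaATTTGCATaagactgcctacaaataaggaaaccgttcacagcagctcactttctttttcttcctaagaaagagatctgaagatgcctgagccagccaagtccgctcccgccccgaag

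H4c8, chr13:23530794-23531093, plus strand: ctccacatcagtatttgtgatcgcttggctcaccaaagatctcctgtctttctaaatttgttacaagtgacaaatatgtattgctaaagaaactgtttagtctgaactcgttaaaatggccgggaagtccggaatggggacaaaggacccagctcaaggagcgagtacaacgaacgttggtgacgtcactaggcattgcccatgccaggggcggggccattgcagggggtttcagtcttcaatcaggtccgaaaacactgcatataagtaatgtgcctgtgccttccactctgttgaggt

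H3c3, chr13:23745472-23745771, minus strand: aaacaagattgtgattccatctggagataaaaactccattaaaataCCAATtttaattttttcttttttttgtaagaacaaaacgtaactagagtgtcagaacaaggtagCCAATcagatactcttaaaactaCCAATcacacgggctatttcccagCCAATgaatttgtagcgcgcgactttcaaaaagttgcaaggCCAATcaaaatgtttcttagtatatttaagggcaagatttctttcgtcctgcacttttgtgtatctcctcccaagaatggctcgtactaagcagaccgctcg

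H3c13, chr3:96268404-96268703, plus strand: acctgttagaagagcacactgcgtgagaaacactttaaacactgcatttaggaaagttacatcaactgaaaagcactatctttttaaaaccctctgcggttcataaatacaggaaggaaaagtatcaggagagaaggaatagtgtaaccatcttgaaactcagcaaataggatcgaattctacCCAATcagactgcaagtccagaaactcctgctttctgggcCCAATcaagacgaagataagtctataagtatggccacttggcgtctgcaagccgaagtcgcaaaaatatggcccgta

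H2ac21, chr3:96219635-96219934, plus strand: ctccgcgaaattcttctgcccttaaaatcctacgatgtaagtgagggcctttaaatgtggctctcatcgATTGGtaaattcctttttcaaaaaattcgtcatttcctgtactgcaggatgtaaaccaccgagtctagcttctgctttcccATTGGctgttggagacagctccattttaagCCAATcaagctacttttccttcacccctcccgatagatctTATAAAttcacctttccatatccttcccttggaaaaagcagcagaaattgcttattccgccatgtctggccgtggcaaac

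H2bc23, chr13:21810150-21810449, minus strand: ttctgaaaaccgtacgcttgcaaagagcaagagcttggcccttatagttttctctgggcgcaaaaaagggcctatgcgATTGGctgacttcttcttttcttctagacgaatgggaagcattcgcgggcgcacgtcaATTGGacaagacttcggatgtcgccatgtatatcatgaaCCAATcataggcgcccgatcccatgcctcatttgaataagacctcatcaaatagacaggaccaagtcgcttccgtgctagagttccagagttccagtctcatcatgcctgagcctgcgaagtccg

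CCAAT was present in 18 of 18 H2A windows, 17 of 17 H2B windows, 10 of 10 H3 windows, 7 of 10 H1 windows and 3 of 12 H4 windows, against 37.4% of all 32851 promoter windows of this length. The octamer was found in 7 of 18 H2A and 7 of 17 H2B windows and in none of the H1, H3 or H4 windows, against 1.74% of all windows. The H2A and H2B windows share sequence, since 10 pairs of windows of opposite strand overlap. TATAAA stood in 35 of 67 histone windows and in 13.6% of all windows. H4c8, whose window is printed above, held none of the 3 motifs. These matches describe letters in a window and no bound site.

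The genes fell into 11 groups when neighbours within 100 kb were joined. Most genes lay in 3 groups on chromosome 13 (GRCm38): 18 genes from H2bc13 to H4bc24 at 21715711 to 21837530, 5 genes from H2ac12 to H2bc11 at 22035122 to 22043658, and 29 genes from H4c8 to H1f1 at 23531044 to 23764412. In this order they are the first, the second and the third chromosome 13 group. A further 10 genes from H2ac21 to H2bc18 lay on chromosome 3 at 96219885 to 96270192, and H2bu2 and H2aw formed a pair on chromosome 11 at 58948911 to 58955192. H4f16, an H4 gene, stood alone on chromosome 6 at 136803993 to 136804431.

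Of the 71 genes, 62 were in a listed pair of some library and 50 in a shared pair. All 10 chromosome 3 genes, all 5 of the second group on chromosome 13 and all 29 of the third were listed, and 13 of 18 in the first. The 9 genes never listed were H1f10 and H1f7, the testis-specific pair H2bc1 and H2ac1, and 5 neighbours at the end of the first chromosome 13 group (H2bc23, H2ac23, H4c17, H2ac24 and H4bc24). The linker histone genes H1f0 and H1f8, which are not tied to S phase and lie outside the clusters, had 1 listed pair each, with 21 and 20 contacts in WT with IL-2. Linker gene H1f6, which is known from testis, was listed in 14 pairs, but its most covered bin was also that of H4c3. Near-identical gene copies can share reads, and the labels do not say how reads that map to more than 1 place were treated, so values of single copies are uncertain.

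Histone bins took part in 678 bin pairs in all, 205 of them shared. The library values were 496 pairs with 20385 contacts in WT control, 587 with 24801 in WT with IL-2, 240 with 9253 in the intron deletion control, 429 with 17818 in the intron deletion with IL-2, 319 with 12577 in the upstream deletion control and 334 with 13458 in the upstream deletion with IL-2. As a share of all listed contacts they ran from 0.611% in the upstream deletion with IL-2 to 0.778% in WT control. The order was not that of depth throughout: the intron deletion with IL-2 had 2709959 listed contacts in all and WT control 2619773. WT with IL-2 alone listed 97 of the 160 pairs seen in a single library. A further 59 pairs were listed in both WT libraries and in no deletion library, and 37 in deletion libraries only.

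Most histone contacts joined histone bins to each other. The share of contacts whose other bin was also a histone bin lay between 62.6% (WT control, 95% Clopper-Pearson interval 61.9 to 63.2%) and 69.3% (intron deletion control, 68.3 to 70.2%). Without the 1 kb extension of the genes the range was 34.7 to 40.3%, so the level of this share depends on how a gene is bounded. Of the 411 pairs between histone bins, 370 joined different genes and 41 lay within the span of a single gene, 37 of these within H2bc6, whose annotation covers 37455 bp with a distant second start. No pair joined 2 groups, but most groups could not be joined in these data. Pairs were read within a chromosome only, and the longest listed pair of any kind spanned 874 to 922 kb in a library. The gap from the second to the third chromosome 13 group is 1487 kb, beyond any listed pair. That from the first to the second is 197 kb. The longest listed pair between histone genes spanned 191 kb, from H1f3 to H3c3 and H2bc3 (21 contacts, WT control only). Within the third chromosome 13 group distant genes were joined, for example H2bc6 with H4c1 and H3c1 over 176 kb, with 25 and 30 contacts in the 2 deletion libraries given IL-2.

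**Figure D1:**
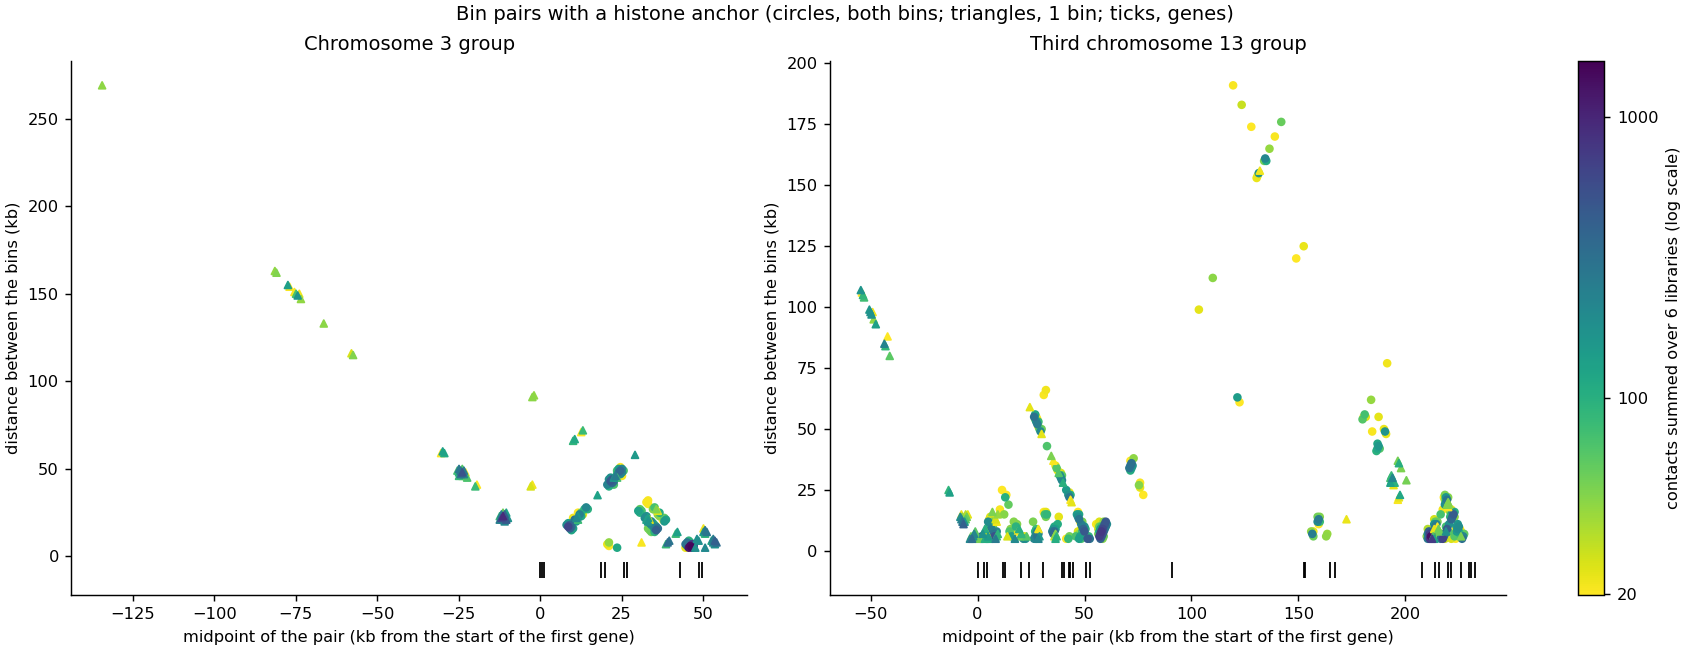
Bin pairs with a histone anchor in the chromosome 3 group (left) and the third chromosome 13 group (right). The x axis gives the midpoint of a pair in kb from the start of the first gene and the y axis the distance between its bins in kb; circles have both bins on histone genes, triangles 1 bin, ticks are gene starts and colour gives contacts summed over 6 libraries on a log scale. Most pairs lie under 60 kb, and a separate set at 153 to 191 kb joins the H1f3 to H2bc6 stretch with the H1f2 to H4c1 stretch.

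The strongest histone loop, by contacts summed over the libraries, joined H4c14, an H4 gene, with H3c13 and H2bc18, an H3 and an H2B gene, 5 kb away on chromosome 3. It had 258 and 273 contacts in WT (control, IL-2), 241 and 291 in intron-deleted cells and 197 and 224 in upstream-deleted cells. On chromosome 13 the strongest joined the linker gene H1f2 with H3c3 and H2bc3 over 6 kb, with 236, 273, 187, 225, 199 and 206 contacts in the same order. Neither passed the test: the intron deletion differed from WT by 0.29 ± 0.12 (log2, SE; edgeR adjusted p = 0.105) at H4c14 and by -0.01 ± 0.13 (adjusted p = 0.970) at H1f2. By distance, the median scaled contacts of loops between histone bins were 50.6 at 5 kb (19 loops; 46.7 for all shared loops), 63.7 at 6 kb (15 loops; 45.9) and 48.7 at 7 to 9 kb (30 loops; 43.6). They were 42.1 at 10 to 14 kb (19 loops; 41.5), 38.2 at 15 to 29 kb (25 loops; 39.2) and 36.0 from 30 kb on (26 loops; 37.0).

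Partners outside the histone genes included neighbouring genes. On chromosome 3 the H2ac21, H2ac20 and H2bc21 bin contacted a bin inside Bola1, an iron-sulfur cluster assembly gene, 23 kb away, with 161 and 206 contacts in WT, 99 and 156 in intron-deleted cells and 134 and 163 in upstream-deleted cells. Bins at the ends of Rnf187, a ubiquitin ligase gene, on chromosome 11 and of Sf3b4, a splicing factor gene, on chromosome 3 each had 6 histone pairs, with 1800 and 1242 contacts over the 6 libraries. Hfe, the hemochromatosis gene, which lies inside the third chromosome 13 group, had 5 pairs with 556 contacts. Over all libraries, 8.58% of histone contacts ended elsewhere within the bounds of the group, those of Hfe among them. Beyond these bounds, 6.00% ended at an end of another gene, 7.55% inside another gene and 13.6% outside genes.

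Coverage, the count of reads at a bin, gave the level of H3K27ac signal at a gene. It was listed in all 6 libraries for 51 genes, which share 33 most covered bins. H2ac21, H2ac20 and H2bc21 shared the highest bin, with 9914 and 9713 scaled reads in WT, 9663 and 9501 in intron-deleted cells and 10273 and 10206 in upstream-deleted cells. H2bc6 followed with 7469 to 8045, H4c8 with 5212 to 6339 and H3c3 and H2bc3, in 1 bin, with 5045 to 6046. H4c2 and H2bu2 were lowest, at means of 775 and 723. By class the medians were 1927 for H1, 1879 for H2A, 1986 for H2B, 1572 for H3 and 2517 for H4, with ranges that overlap widely. Over the 94 shared histone bins the median coverage was 1269, against 1172 for all shared bins, and over the 53 of them that hold a gene end it was 1581, against 2532 for all 2859 such bins. Histone bins had a median of 4 listed partners in WT control against 2 for all listed bins.

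**Figure D2:**
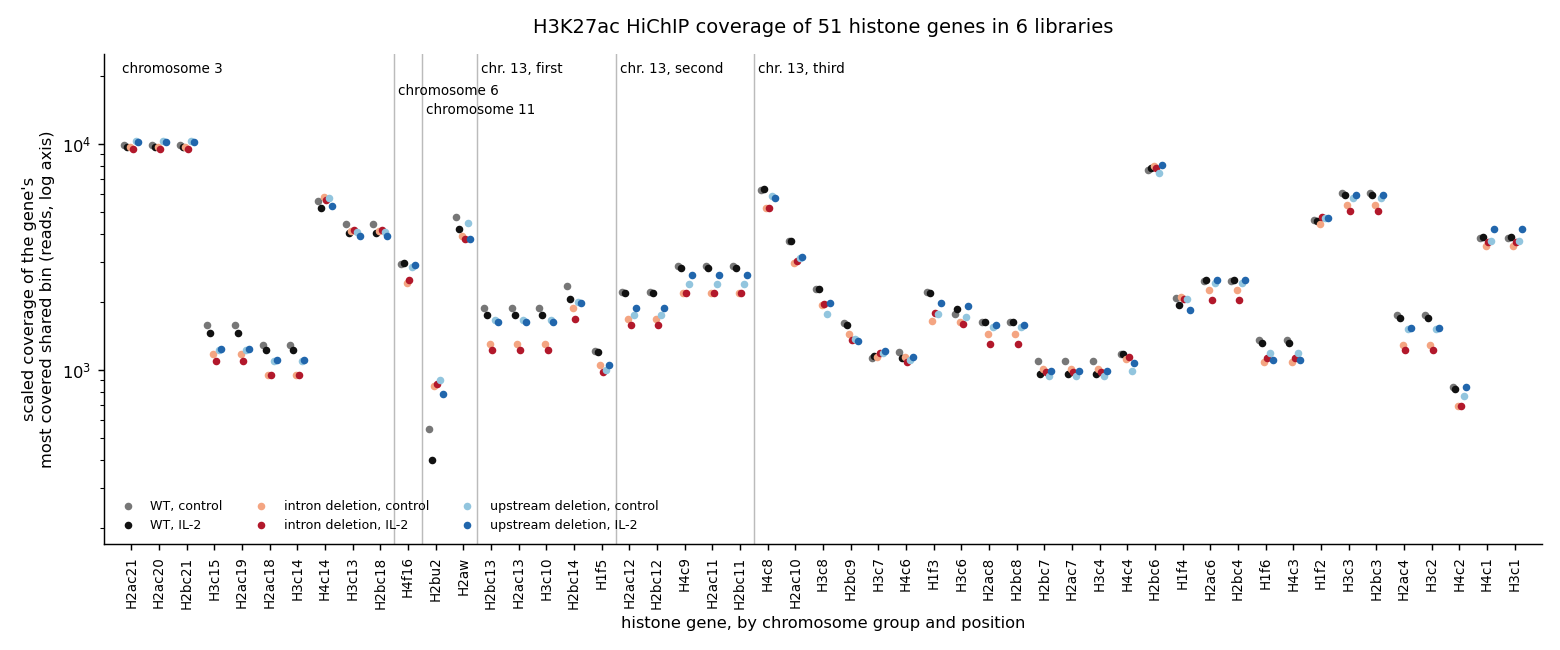
Scaled coverage (reads, log axis) of the most covered shared bin of each of 51 histone genes, ordered by group and position, with 1 point per library. Points of a gene spread most at H2bu2, where both WT libraries (549 and 399) lie below the 4 deletion libraries (782 to 900). Other genes spread less, for example from 1227 to 1874 at H2bc13, H2ac13 and H3c10, and genes that share a bin show the same points.

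The largest change between genotypes was at H2bu2 and H2aw on chromosome 11, an H2B and an H2A gene whose promoters are printed above. The bin with most of H2bu2 and the bin at the start of H2aw, 5 kb apart, had 57 and 67 contacts in WT (control, IL-2), 133 and 204 in intron-deleted cells and 184 and 186 in upstream-deleted cells. Both WT values were below all 4 deletion values although the WT libraries were the deepest of each treatment. In the test of loops the spread was pooled over all shared loops, so small p-values there do not measure agreement between libraries at 1 loop. The loop rose by 1.72 ± 0.17 (log2, SE) in intron-deleted cells (edgeR adjusted p = 2.76e-21) and by 1.85 ± 0.16 in upstream-deleted cells (adjusted p = 4.30e-25). It passed the threshold under all 9 alternatives for each deletion. It was the only shared histone loop to pass in upstream-deleted cells, where 0.0785% of all shared loops were called and 0.0464% were called higher. IL-2 moved it by 0.03 ± 0.12 (adjusted p = 0.944).

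The neighbouring bin, in which H2bu2 starts, went the other way. Its contacts with the same H2aw bin were 66 and 55 in WT, 25 and 28 in intron-deleted cells and 47 and 45 in upstream-deleted cells (intron deletion -0.89 ± 0.25, edgeR adjusted p = 0.00827; upstream deletion -0.13 ± 0.22, adjusted p = 0.927). Its coverage was 651 and 517 scaled reads in WT, 259 and 275 in intron-deleted cells and 373 and 343 in upstream-deleted cells, and it fell by 1.11 ± 0.11 on the log2 scale (edgeR adjusted p = 9.05e-04) and by 0.70 ± 0.11 (adjusted p = 0.0435). The bin with most of the gene had 549 and 399, 845 and 863, and 900 and 782 scaled reads, and rose by 0.87 ± 0.12 (adjusted p = 0.00246) and 0.84 ± 0.12 (adjusted p = 0.0413). Summed over both bins, a comparison chosen after seeing the data, mean coverage in the intron and upstream deletions was 1.06 and 1.13 times that of WT, and contacts with the H2aw bin were 1.92 and 2.27 times, against 3.29 and 3.62 times for the second bin alone. The H2bu2 coverage calls in upstream-deleted cells were lost when any WT or upstream deletion library was left out. Both H2bu2 bins also lie inside the long non-coding RNA gene Gm51864, which cannot be told apart from H2bu2 there. The H2aw bin also holds the start of Trim17 and the pseudogene H2bu1-ps, which cannot be told apart from H2aw at this bin size.

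In the intron deletion 11 of the 15 shared chromosome 11 loops were lower, and 4 of these fell past the threshold, where 5.03% of all shared loops were called lower. From the H2aw bin to a place inside Trim17, a ubiquitin ligase gene, 6 kb away, the contacts were 80 and 74 in WT, 27 and 35 in intron-deleted cells and 46 and 47 in upstream-deleted cells (intron deletion -1.02 ± 0.23, adjusted p = 4.81e-04). To the bin before that place they were 106 and 97, 39 and 60, and 63 and 64 (-0.75 ± 0.19, adjusted p = 0.00304). WT was above both deletions in each. The bin with the end of H2aw and the bin after it fell in coverage, by 0.58 and 0.56 (log2) in intron-deleted cells (adjusted p = 0.00158 and 0.00157) and by 0.45 and 0.44 in upstream-deleted cells (adjusted p = 0.0453 and 0.0435).

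**Figure D3:**
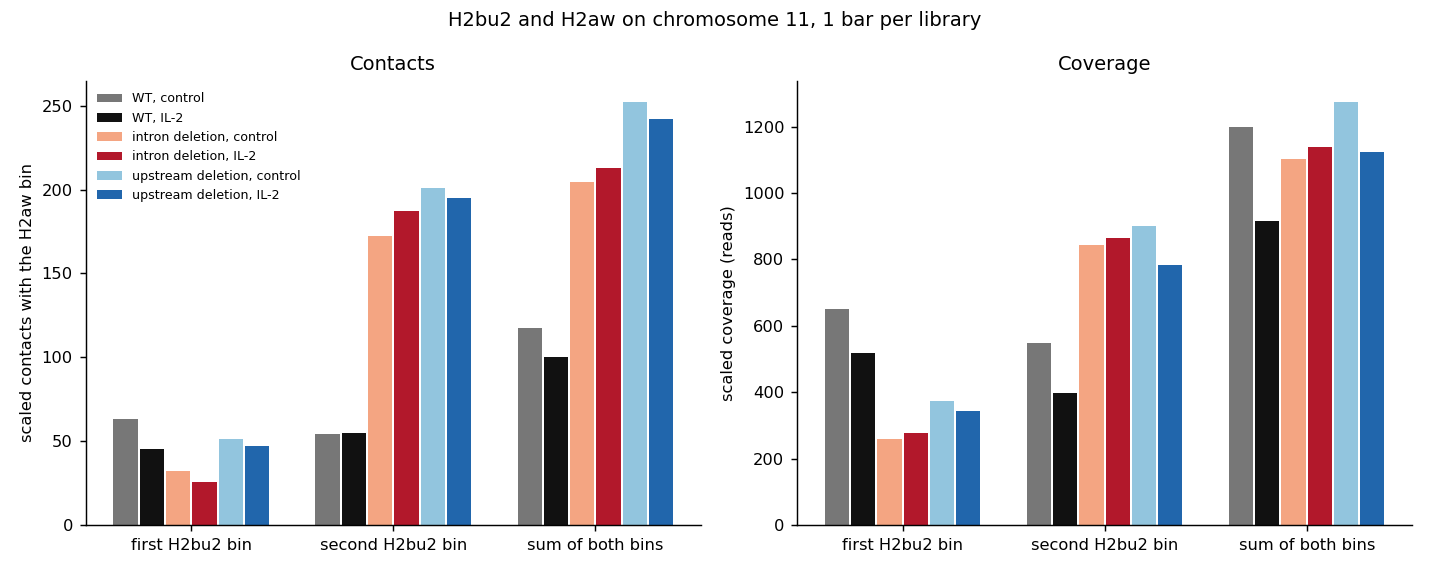
Scaled contacts with the H2aw bin (left) and scaled coverage (right) of the bin in which H2bu2 starts (first), of the bin with most of the gene (second) and of their sum, 1 bar per library. The second bin is higher and the first lower in coverage in the 4 deletion libraries, and the summed coverage of the deletion libraries lies within the range of WT or just above it (916 to 1273 over all 6 libraries).

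Over all groups, histone bins were mostly lower in both deletions, by small amounts. In the intron deletion 41 of 94 shared histone bins passed the threshold, 4 higher and 37 lower, against 46.2% called of all shared bins; 21.7% were called higher and 24.5% lower. The median change of the 94 bins was -0.16 (log2), against -0.03 for all bins, and 75 of 94 (79.8%) were lower, against 54.1% of all. In the upstream deletion 6 of 94 passed, 1 higher and 5 lower, against 1.69% of all (1.21% higher, 0.484% lower), with a median of -0.16 against 0.00, and 83 of 94 (88.3%) were lower. The medians kept their sign with DESeq2 (-0.14 and -0.15) and with scaling by the total (-0.13 and -0.17). Bins next to each other share reads and are not independent, and a list's median is a description here, with no test. In bulk samples fewer cells of a kind and less mark per cell cannot be told apart. Leaving out a library leaves its genotype with 1 library, which the fit matches exactly, so that genotype adds no spread. Without either intron deletion library, IL-2 and the upstream deletion are compared on the same WT and upstream deletion libraries. Those fits are therefore not separate checks.

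The count in upstream-deleted cells changed when a library was left out, which leaves 1 residual degree of freedom: it was 0 without WT control, WT with IL-2, the upstream deletion control or the upstream deletion with IL-2, and 54 (53 lower) without either intron deletion library. The calls over all bins moved too, to at most 0.0161% in the first 4 cases and to 40.7% in the others. In the intron deletion the histone count was 8 without WT control and 9 without WT with IL-2, when 23.1% and 20.5% of all bins were called. It was 59 and 51 without the intron deletion control or the one with IL-2 (65.8% and 56.2% of all bins), and 28 and 31 without the upstream deletion control or the one with IL-2 (41.6% and 42.5%).

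The groups differed in how far they moved, a difference that was not tested. The chromosome 3 group had medians of -0.03 (intron deletion) and -0.06 (upstream deletion) over 18 bins, with 4 and 0 calls. Of these 18 bins, 12 and 16 were lower. In the second chromosome 13 group 7 of 7 bins were lower past the threshold in intron-deleted cells, median -0.38, and 2 of 7 in upstream-deleted cells, median -0.27. The third chromosome 13 group had medians of -0.14 and -0.17 over 58 bins, of which 47 and 51 were lower. It had 18 lower and 3 higher calls in intron-deleted cells and none in upstream-deleted cells. The H2ac12 and H2bc12 bin is an example of the second group: 1727 and 1602 scaled reads in WT, 1384 and 1371 in intron-deleted cells, and 1186 and 1177 in upstream-deleted cells (-0.27 ± 0.07, adjusted p = 0.0212, and -0.49 ± 0.07, adjusted p = 0.0402). The bin of H2bc13, H2ac13 and H3c10 in the first group had 1874 and 1742, 1300 and 1227, and 1661 and 1629, a log2 change of -0.52 ± 0.07 in intron-deleted cells (edgeR adjusted p = 0.00211). WT values were above those of the deletions in both bins.

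**Figure D4:**
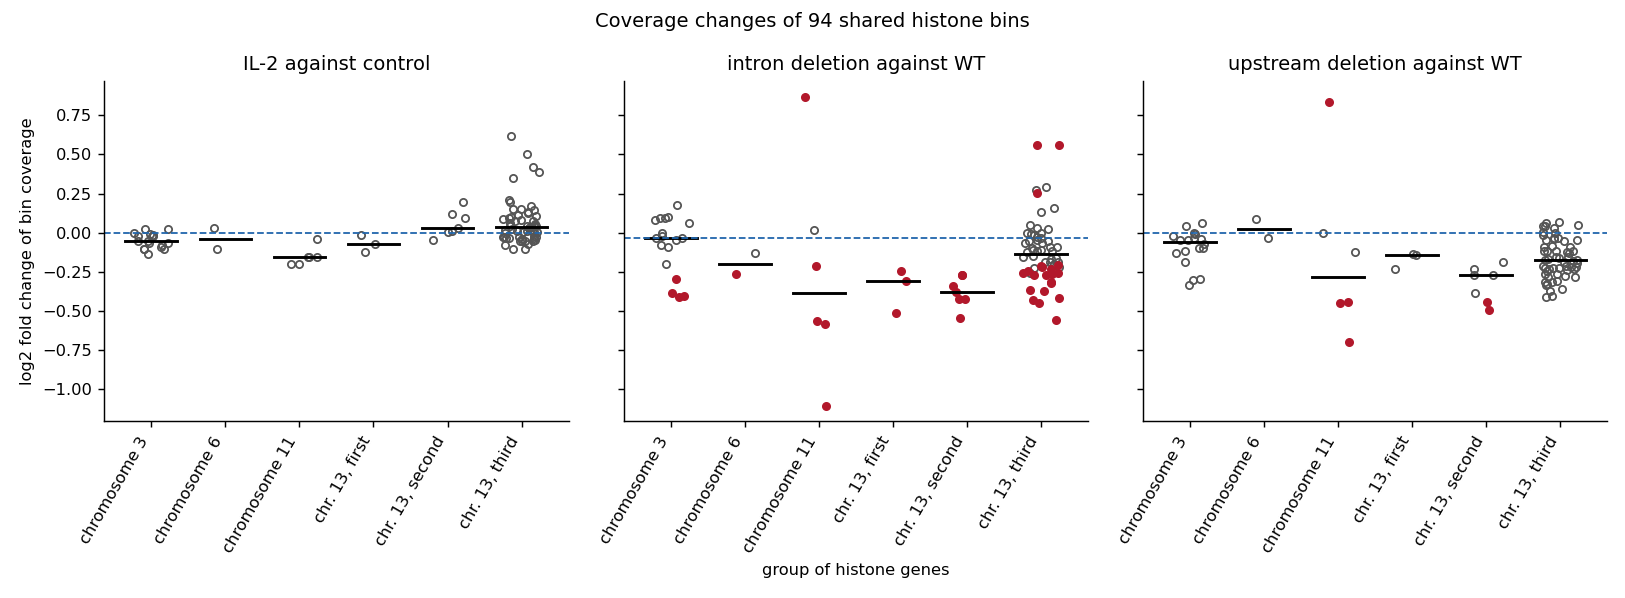
Log2 fold change of coverage of 94 shared histone bins by group of genes, for IL-2 and for each deletion. Filled points passed an adjusted p of 0.05, bars are group medians and the dashed line is the median of all 18580 shared bins. Most bins of the chromosome 13 groups lie below that line in both deletions. The chromosome 3 median is near it in the intron deletion. In the upstream deletion that median is -0.06, and 16 of the 18 chromosome 3 bins are lower than in WT.

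Summed over the shared loops of each gene, contacts formed 44 histone features, of which 7 passed in intron-deleted cells (1 higher, 6 lower) and 1 in upstream-deleted cells, against 17.3% (8.95% higher, 8.32% lower) and 0.513% (0.456% higher) of all 3508. H2bu2 was the rise in both, by 0.50 ± 0.10 (edgeR adjusted p = 0.00386) and 0.73 ± 0.10 (adjusted p = 0.00198). H4c8, at the start of the third chromosome 13 group, fell most firmly: 762 and 803 contacts in WT, 405 and 538 in intron-deleted cells, 523 and 532 in upstream-deleted cells. With scaling these are 718 and 642, 524 and 497, and 589 and 563, and the change was -0.41 ± 0.08 in intron-deleted cells (adjusted p = 0.00164) and -0.24 ± 0.08 in upstream-deleted cells (adjusted p = 0.188). H3c2 had 362 and 363 scaled contacts in WT, 260 and 270 in intron-deleted cells and 325 and 329 in upstream-deleted cells, a log2 change of -0.45 ± 0.09 in intron-deleted cells (adjusted p = 0.00256).

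The H2A gene H2ac4, next to H3c2, fell by 0.34 ± 0.08 (log2) in intron-deleted cells (adjusted p = 0.00961), and its scaled contacts were 518 and 525, 396 and 429, and 477 and 466. For H3c8 the scaled contacts were 482 and 477, 393 and 374, and 402 and 390, and for H2ac10 they were 293 and 269, 221 and 227, and 243 and 217; their changes were -0.32 ± 0.08 (adjusted p = 0.0114) and -0.32 ± 0.10 (adjusted p = 0.0378). H4f16 on chromosome 6 fell by 0.41 ± 0.10 (log2) (adjusted p = 0.0100), with 295 and 288, 203 and 232, and 252 and 247 scaled contacts. Both WT values of each of these 6 genes were above both intron deletion values. Some of these genes share bins (H2ac4 with H3c2, and H2ac10 with H3c8 and with H4c8), so they are not independent observations. The 9 chromosome 3 features had no call, and 8 of them were higher in intron-deleted cells, with a median of 0.06. The H2bu2 rise in intron-deleted cells was not called with DESeq2 or with unlisted pairs set to 0 or 19. No histone feature was called higher in those fits. Over the 12 alternatives the H2bu2 change ran from 0.21 to 0.62 (log2). Without WT control the call of H2bu2 was the only one left of the 7 in intron-deleted cells, and without WT with IL-2 there was none. In the upstream deletion the call of H2bu2 was lost without WT control, WT with IL-2 or the upstream deletion with IL-2, and without an intron deletion library there were 7 (control) and 3 (IL-2) calls, when 9.58% and 4.33% of all features were called.

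Of 205 shared histone loops, 14 passed in intron-deleted cells (1 higher, 13 lower), against 11.3% of all shared loops. Of all loops 6.27% were called higher and 5.03% lower. The loop from H4c8 to a place 11 kb before it had 92 and 109 contacts in WT, 33 and 57 in intron-deleted cells and 64 and 66 in upstream-deleted cells (intron deletion -0.88 ± 0.20, adjusted p = 4.18e-04). That from H3c3 and H2bc3 to H2ac4 and H3c2 had 139 and 155, 66 and 88, and 95 and 116 (-0.65 ± 0.17, adjusted p = 0.00249). The loop from H4f16 to H2aj, an H2A variant gene, had 123 and 126, 50 and 99, and 76 and 94 (-0.48 ± 0.17, adjusted p = 0.0491). Both WT values were above both intron deletion values in these loops. Beside the 4 on chromosome 11, the other 6 fell by 0.60 to 0.83 (log2) and lay in the second and the third chromosome 13 group. The median of all 205 was -0.09 in intron-deleted cells (all loops -0.01) and -0.13 in upstream-deleted cells (all loops 0.00). DESeq2 called 1 in intron-deleted cells, the rise on chromosome 11. Without a WT library there were 2 (control) and 3 (IL-2) calls, and leaving out an intron deletion library gave 9 (control) and 5 (IL-2).

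With IL-2, 5 of 205 shared histone loops (2.44%) passed, all higher, near the 3.3% of all shared loops called and the 2.56% called higher. All 5 join the promoter bins of H2bc6, an H2B gene of the third chromosome 13 group, with a stretch 5 to 8 kb away inside its annotated span, where an end of the long non-coding RNA gene Gm33387 lies. The pair at 7 kb from the second promoter bin had 71 contacts in WT control and 121 with IL-2, 63 and 127 in intron-deleted cells, and 38 and 80 in upstream-deleted cells, a rise of 0.66 ± 0.15 (adjusted p = 0.00188). The pair at 5 kb from that bin had 52 and 93, 53 and 89, and 40 and 80, a rise of 0.59 ± 0.16 (adjusted p = 0.0160). The other 3 rose by 0.41 to 0.50. After scaling IL-2 was above control in every genotype for these pairs. No call was left with DESeq2, without a genotype term, or without WT control, WT with IL-2, the upstream deletion control or the upstream deletion with IL-2. Without those 4 libraries, 0.164% to 0.243% of all loops were called. Over all alternatives the pair at 7 kb from the second promoter bin changed by 0.53 to 0.73 and the pair at 5 kb by 0.43 to 0.77.

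The bins of this stretch had the largest IL-2 changes among the 94 shared histone bins. Scaled coverage at 7 kb from the first promoter bin was 556 in WT control and 987 with IL-2, 515 and 852 in upstream-deleted cells, and 988 and 1227 in intron-deleted cells. Control cells of the intron deletion had about the value of IL-2-treated WT cells there. At 8 kb the values were 865 and 1351, 787 and 1262, and 1495 and 1708. IL-2 gave 0.62 ± 0.11 and 0.50 ± 0.11 at these bins (adjusted p = 0.0616 for both), and the intron deletion gave 0.56 ± 0.13 (adjusted p = 0.0148) and 0.56 ± 0.13 (adjusted p = 0.0140) against WT. The promoter bin itself, 7635 and 7812 in WT, changed by 0.04 ± 0.04 with IL-2 (adjusted p = 0.549).

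**Figure D5:**
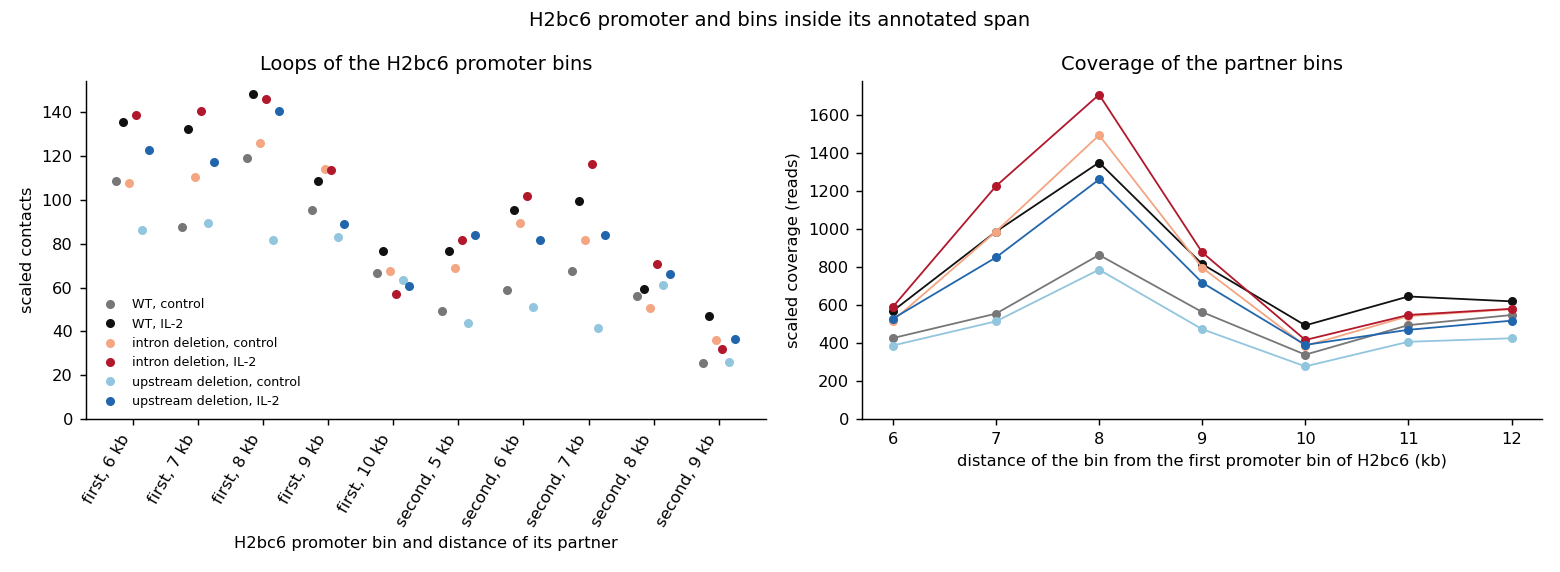
Scaled contacts between the H2bc6 promoter bins and bins 5 to 10 kb away (left) and scaled coverage of the bins 6 to 12 kb from the first promoter bin (right), by library. IL-2 points lie above their control at 5 to 8 kb, and at 7 and 8 kb the intron deletion control (988 and 1495) lies well above the WT (556 and 865) and upstream deletion controls (515 and 787).

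No shared histone bin passed for IL-2 in edgeR (0 of 94; 0% of all shared bins), with 14 at an unadjusted p under 0.05, against 36.6% of all bins. DESeq2 called 7 (20.2% of all bins), and edgeR called 27 without either intron deletion library (54.5% of all bins). No histone gene feature passed for IL-2 (0 of 44, against 5.59% of all features; 4 at an unadjusted p under 0.05; none with DESeq2). The smallest adjusted p was that of H2bc14 in the first chromosome 13 group (-0.60 ± 0.19, adjusted p = 0.0756), which rests on 1 shared pair. The median IL-2 change was 0.00 over histone bins and -0.04 over gene features. Without an intron deletion library 5 (control) and 3 (IL-2) histone gene features were called, against 24.3% and 20.7% of all features.

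The response to IL-2 was also compared between the intron deletion and the other 2 genotypes. A difference in this response counts as spread in the fits above, which assume the same IL-2 change in every genotype. Of 94 histone bins, 7 differed (3 with a higher and 4 with a lower response), against 21.5% of all shared bins (10.1% higher, 11.4% lower). The 4 lower ones are the bins 7 to 10 kb from the H2bc6 promoter, with differences of -0.41 to -0.47, where the intron deletion already had high values in control cells at 7 to 9 kb. The higher ones were the H2bu2 bin with most of the gene (0.35 ± 0.11, adjusted p = 0.0125), the bin before H2aw (0.42 ± 0.12, adjusted p = 0.00335) and a bin of H3c13 and H2bc18 (0.23 ± 0.09, adjusted p = 0.0347). The share of histone bins, 7.45%, was below that of all bins. This fit leaves 1 residual degree of freedom. The intron deletion has 1 control and 1 IL-2 library, so the spread comes from WT and the upstream deletion alone, and edgeR pooled it over all bins. The p-values thus hold no replicate check of the intron deletion's response. DESeq2 called none of the 94 bins (2 at an unadjusted p under 0.05).

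Genes that serve histone production were read with the same gene features. Of 25 named genes for histone gene expression and pre-mRNA processing, 9 were measured and none passed in any comparison, with medians of 0.02 for IL-2, -0.10 for the intron deletion and -0.06 for the upstream deletion (all features 0.00, -0.02 and 0.00). Slbp, the histone hairpin-binding protein, had a change of 0.25 ± 0.11 in intron-deleted cells and -0.25 ± 0.11 in upstream-deleted cells, neither of which passed. Npat was listed in 3 libraries with 21 to 27 contacts and could not be tested. Of 20 histone chaperone genes 8 were measured and none passed. Among 15 histone variant genes outside the rule 5 were measured, and H2aj (-0.38 ± 0.08, adjusted p = 0.00509) and H2ax (-0.27 ± 0.07, adjusted p = 0.0166) fell in intron-deleted cells, where 8.32% of all features were called lower.

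Genes of DNA replication and S phase, the phase in which histone genes are transcribed, were read in the same way. Of 22 named genes 8 were measured. In the intron deletion 7 of 8 were lower, 2 past the threshold (Cdt1, the licensing factor, -0.23 ± 0.07, adjusted p = 0.0341, and Uhrf1, the maintenance methylation cofactor, -0.24 ± 0.07, adjusted p = 0.0354), with a median of -0.19. Of all features 52.3% were lower there and 8.32% were called lower. In the upstream deletion 8 of 8 were lower, against 49.5% of all features, with a median of -0.14 and no call. With IL-2 Cdt1 alone passed (higher by 0.21 ± 0.06, adjusted p = 0.0387), and the median was 0.12. The share of cells in S phase was not measured, and its part in the histone values was not tested.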

How the data were processed

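Of 25 samples the 6 HiChIP libraries were used; 19 ChIP-seq samples are not analysed here. The submitters' processing notes name CASAVA, Bowtie2 2.2.6, HiC-Pro and mm10 (GRCm38). The deposited values are raw contact counts per pair of 1 kb bins and raw coverage counts per bin, and no listed pair had fewer than 20 contacts or bins closer than 5 kb. Settings of the loop caller and the treatment of reads from near-identical genes: not given in the sources used here.

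Histone genes and all other genes were placed with RefSeq GRCm38.p6. Shared pairs, shared bins and summed contacts per gene (genes with the same pairs form 1 feature) were tested with edgeR 4.0.16 (quasi-likelihood, TMM, additive genotype and treatment terms, 2 residual degrees of freedom; R 4.3.3) over all features, with Benjamini-Hochberg adjustment and a threshold of 0.05. Scaled values are counts divided by the library's total times its TMM factor, and multiplied by the mean of that product over the libraries. SE is the log2 fold change over the square root of F. The prior degrees of freedom were infinite for loops (spread fully pooled), 4.23 for bins and 13.4 for gene features. DESeq2 1.42.0, scaling by the total, filters on the mean (30 contacts for loops, 1000 reads for bins, 60 contacts for genes), unlisted pairs as 0 or 19, no extension and leaving out each library were alternatives; IL-2 was also tested without a genotype term. The scripts were tested on simulated data. Named genes were chosen from the 12 with most contacts, those past the threshold and the most covered of each group and class; named loops from the 10 strongest and the 5 largest rises and falls. H1f6, Npat, Slbp, H2bc14, the H4f16 loop and the longest pairs were named after their values were seen. The members and lists were chosen with earlier results of these data known. Python 3.11.15 was used for tables.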

Additional observations from a re-analysis of the deposited data

Results flagged for a closer look

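The IL-2 response of the intron deletion differed from that of the other 2 genotypes at 7 histone bins, by a test of the difference itself (edgeR, log2 coverage, 1 residual degree of freedom, spread pooled over all bins and taken from WT and the upstream deletion). In that fit 21.5% of all shared bins were called, against 7.45% of histone bins, and DESeq2 called none of the 94. The differences were -0.47 at the bins 7 and 8 kb from the H2bc6 promoter bin, -0.42 at 9 kb and -0.41 at 10 kb. They were 0.35 at the H2bu2 bin with most of the gene, 0.42 at the bin before H2aw and 0.23 at a bin of H3c13 and H2bc18. Scaled coverage at the bin before H2aw was 711 and 553 in WT (control, IL-2), 698 and 563 in the upstream deletion and 611 and 648 in the intron deletion. At the H3c13 bin it was 2547 and 2260, 2447 and 2050, and 2514 and 2547. In both bins IL-2 was lower than control in WT and the upstream deletion and higher in the intron deletion.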

How the results depend on the processing

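Across 707 recomputed values for the 82 histone loops, bins and gene features past the threshold, none changed sign, 426 stayed past the threshold and 281 did not. These features were picked because they passed in the same libraries, and the recomputed values reuse their counts. A kept sign is therefore no independent check. The cause of changed counts was not tested, apart from the smaller number of features that a filter leaves. IL-2 loop calls (5) were 3 with scaling by the total and 0 with DESeq2 or without a genotype term, and 0 to 6 with a library left out. Intron deletion loops (14) were 1 with DESeq2 and 2 to 10 with a library left out. IL-2 bins (0) were 7 with DESeq2 and 0 to 27 with a library left out. Intron deletion bins (41) were 24 after the filter (60 bins tested) and 8 to 59 with a library left out. Upstream deletion bins (6) were 18 with DESeq2, 0 after the filter and 0 to 54 with a library left out. IL-2 gene features (0) were 0 to 5 with a library left out. Intron deletion gene features (7) were 1 with DESeq2, 1 with unlisted pairs as 0, 12 as 19, and 0 to 8 with a library left out. Upstream deletion gene features (1) were 0 with unlisted pairs as 0 or 19, and 0 to 7 with a library left out. Bins whose IL-2 response differed in the intron deletion (7) were 0 with DESeq2 and 3 after the filter, alternatives chosen after seeing the data; no library could be left out of that fit.

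Summed histone contacts with IL-2 over control were 1.22, 1.93 and 1.07 in WT, the intron and the upstream deletion. Scaled by the library total they were 0.886, 0.934 and 0.954, and with at least 40 contacts the intron deletion had 2.09. The histone-to-histone share without extension was 34.7, 35.9, 40.3, 38.9, 35.7 and 39.0% from WT control to the upstream deletion with IL-2. Without pairs inside 1 gene, chosen after seeing the data, it was 55.4, 53.5, 57.5, 54.0, 55.7 and 56.1%. Depth limits which pairs are listed: a pair under 20 contacts is not 0. The labels give no replicate numbers by which samples could be paired; the genotype term compares IL-2 with control within each genotype, and without it no IL-2 loop was called.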
